A study of Drosophila melanogaster with 4 samples.

Results

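The genes described here are 6 *Drosophila melanogaster* genes whose transcripts were brighter in embryos lacking the RNA-binding protein HOW than in wild-type embryos: *CG42324*, *CG7650*, *CG14502*, *CG5973*, *CG2065* and *axed*. They were picked by their signals, because both mutant arrays lay at least 2.5-fold above both wild-type arrays and because little is known of their function. This choice used the contrast itself, so the signals of the 6 genes are given as a description and without a test. The 6 genes are covered by 7 of the 13966 gene probe sets on the array, and 6 of the 7 passed a filter on dim probe sets that kept 8380. For 5 of these 6 the wild-type mean alone lay under the signal of 39.5 at which the filter stood, so they passed through their mutant signal.

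RNA came from whole embryos collected over 2 h and aged at 25 °C to 3 to 5 h after egg laying. The wild type was the yw stock. The mutants were *how* embryos from mothers with a *how* germline clone, which lack the maternal and the zygotic gene product, and homozygotes were separated from siblings by a fluorescent balancer. The labels name neither the *how* allele nor the stock the clones were made in, so the effects of *how* and of the stock cannot be told apart. Each of the 2 arrays per group was hybridised with RNA pooled from 5 preparations of about 100 embryos. No probe set was named *how*, and the loss of *how* could not be read from the arrays. Expression was measured as the MAS5 signal, an Affymetrix summary of a probe set's brightness on a linear scale. In whole embryos, fewer cells of a type and less RNA per cell cannot be told apart.

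HOW belongs to the STAR family of RNA-binding proteins, which bind short elements in target mRNAs and alter their splicing, export or stability. It is best known from mesoderm, muscle, tendon and glial cells. Array signals do not show whether HOW binds a transcript. Among the 6 genes, *CG2065* encodes a predicted short-chain dehydrogenase of the retinol dehydrogenase type, an enzyme class that oxidises or reduces small lipids and alcohols. *CG5973* encodes a predicted CRAL-TRIO protein, a class that carries hydrophobic ligands such as retinoids and tocopherol. *CG7650* encodes a predicted phosducin-like protein, a family with a thioredoxin-like fold known from other species as helpers of chaperones and of G protein assembly. *axed* (*axundead*) encodes a protein with BTB and BACK domains and is the exception to the description of little-studied genes: in adult neurons it is required for the breakdown of severed axons. No protein class is given here for *CG42324* and *CG14502*.

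The 6 genes had low signals in wild type and middling signals in the mutant. Over the 6 probe sets that passed the filter, wild-type signals ran from 6.77 to 59.0, which is the 11.3 to the 45.9 percentile of all gene probe sets on the same array. Mutant signals ran from 164 to 309.5, the 62.8 to the 74.8 percentile. The median signal of all gene probe sets was 76.1 to 79.8 in wild type against 75.5 to 82.1 in the mutant, so each of the 6 lay below the array's median in wild type and above it in the mutant. By the rule, 6 of 6 were separated at least 2.5-fold, as were 0.692% of the 8380 probe sets that passed the filter, and nothing is read from that count. In either direction, 46.8% of those probe sets had groups that did not overlap.

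The widest separation among the 6 was that of *CG42324* (Entrez gene 38430). Its brighter probe set, 148116_at, gave signals of 12.7 and 6.77 on the wild-type arrays against 267 and 239.8 on the mutant arrays. Mutant and wild type did not overlap, and the lowest mutant signal was 18.9 times the highest wild-type signal. The means were 9.74 ± 4.20 and 253.5 ± 19.4 (SD, n = 2), and the log2 change, mutant minus wild type, was 4.77 ± 0.47 (SE).

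A second probe set of *CG42324*, 148115_at, did not share the difference. It gave 1.45 and 3.26 in wild type against 3.97 and 3.52 in the mutant, all at or under the 6.11 percentile of their arrays. The signal used as a floor, the 5th percentile of all gene signals, was 3.38, so this probe set stayed at the bottom of the scale in both groups and did not pass the filter. The RefSeq gene table joins 2 earlier gene models, *CG14972* and *CG14973*, in *CG42324* and lists 6 transcripts for it. The annotation does not say which part of the gene either probe set matches.

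*CG7650* (148812_at, Entrez gene 39694), the phosducin-like gene, had wild-type signals of 9.97 and 13.6 and mutant signals of 164 and 174.1. The 2 mutant arrays were within 1.06-fold of each other and both were at least 12.1 times the higher wild-type array. Its means were 11.8 ± 2.55 and 169 ± 7.12 (SD, n = 2), and its log2 change was 3.86 ± 0.44 (SE). RefSeq lists 1 transcript for it, and one of its synonyms there is the name of a clone from a testis cDNA library.

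*CG14502* (153519_at, Entrez gene 37092) had signals of 20.5 and 26.8 in wild type against 302 and 260.3 in the mutant. Its separation was 9.71-fold, with means of 23.7 ± 4.44 and 281 ± 29.5 (SD, n = 2) and a log2 change of 3.58 ± 0.32 (SE). The wild-type arrays differed by 1.31-fold, the closest agreement among the 6 genes in that group.

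*CG5973* (153381_at, Entrez gene 34023), the CRAL-TRIO gene, had signals of 33.4 and 16.2 in wild type against 199.9 and 179.7 in the mutant. The groups were 5.37-fold apart at their nearest arrays, although the wild-type arrays differed from each other by 2.06-fold. The means were 24.8 ± 12.2 and 189.8 ± 14.2 (SD, n = 2), and the log2 change was 3.03 ± 0.43 (SE).

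*CG2065* (146757_at, Entrez gene 35707), the dehydrogenase gene, had signals of 17.3 and 57.9 in wild type against 202 and 211 in the mutant. Its wild-type arrays differed by 3.35-fold, the widest spread among the 6 genes, while its mutant arrays were within 1.05-fold. The groups did not overlap, and the separation of 3.49-fold was the narrowest of the 6. The means were 37.6 ± 28.7 and 207 ± 6.49 (SD, n = 2), and the log2 change of 2.71 ± 0.53 (SE) was 1.84 without wild-type array 1 and 3.58 without wild-type array 2.

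*axed* (148286_at, Entrez gene 38741) had signals of 59.0 and 36.6 in wild type against 234 and 309.5 in the mutant. It was the only one of the 6 whose wild-type mean exceeded the signal of the filter. The separation was 3.97-fold, the means were 47.8 ± 15.8 and 272 ± 53.3 (SD, n = 2), and the log2 change was 2.53 ± 0.32 (SE), the smallest of the 6.

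**Figure D1:**
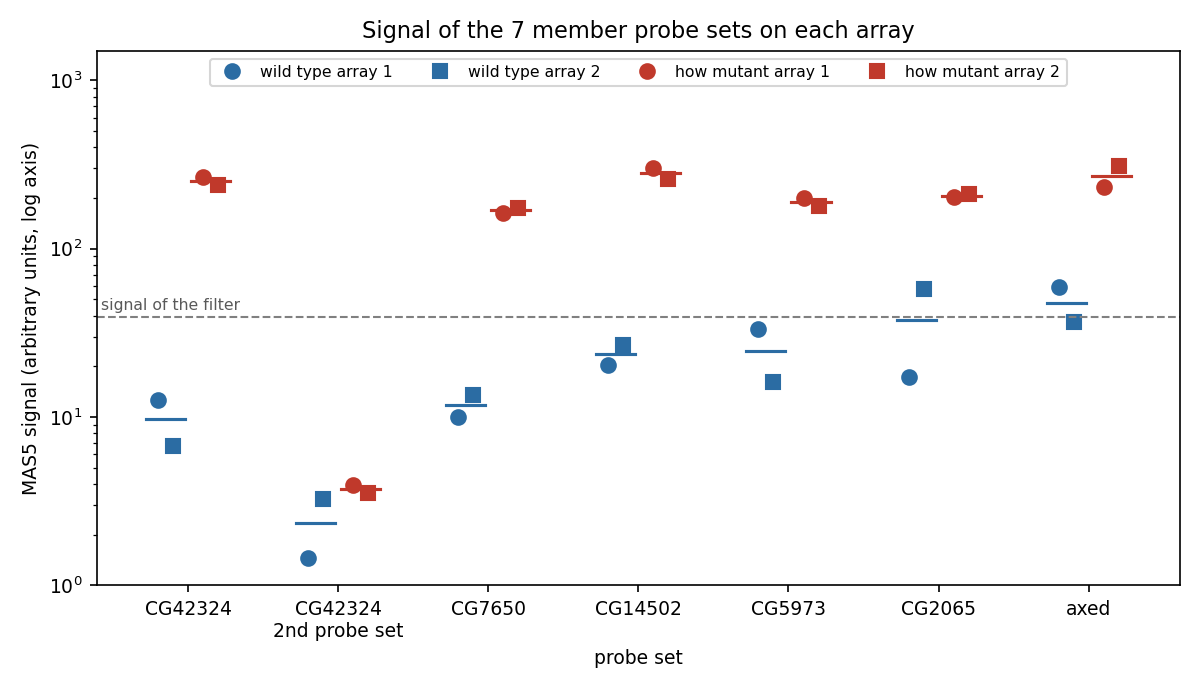
Signal of each of the 7 probe sets (log axis, arbitrary units) on the 2 wild-type arrays (blue) and the 2 *how* mutant arrays (red); circles are arrays 1, squares arrays 2, and short lines the group means. The mutant arrays lie between 164 and 309.5 for 6 probe sets, and the second probe set of *CG42324* stays under 4 in both groups; the dashed line marks the signal of 39.5 used as a filter.

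The wild-type arrays differed from each other more than the mutant arrays did. The ratio between the 2 wild-type arrays had a median of 1.74 over the 6 genes, and that between the 2 mutant arrays a median of 1.11; the ratio was larger in wild type for all 6. Probe sets of like brightness had similar ratios: 3564 others with wild-type means from 9.74 to 47.8 had a median ratio of 1.62 between the wild-type arrays, and 1334 others with mutant means from 169 to 281 a median ratio of 1.15 between the mutant arrays. When 50 was added to every signal, which damps differences between dim values, the ratio of the means went from 26.0 to 5.08 for *CG42324*, from 14.4 to 3.55 for *CG7650* and from 11.9 to 4.50 for *CG14502*. It went from 7.65 to 3.21 for *CG5973*, from 5.50 to 2.93 for *CG2065* and from 5.69 to 3.29 for *axed*. On that scale the separation of *CG2065* was 2.34-fold, under the 2.5-fold threshold, and those of the other 5 were above it, up to 4.62.

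The ratio of mutant to wild type was also read within each replicate number. For *CG42324* it was 21.0 for the arrays numbered 1 and 35.4 for those numbered 2, and for *CG7650* it was 16.5 and 12.8. *CG14502* had ratios of 14.7 and 9.71, and *CG5973* of 5.98 and 11.1. The 2 genes with the narrowest separation differed most in opposite ways, with 11.7 and 3.65 for *CG2065* and 3.97 and 8.46 for *axed*. Ratios above 2.5 in both numbers follow from the rule that chose the genes.

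**Figure D2:**
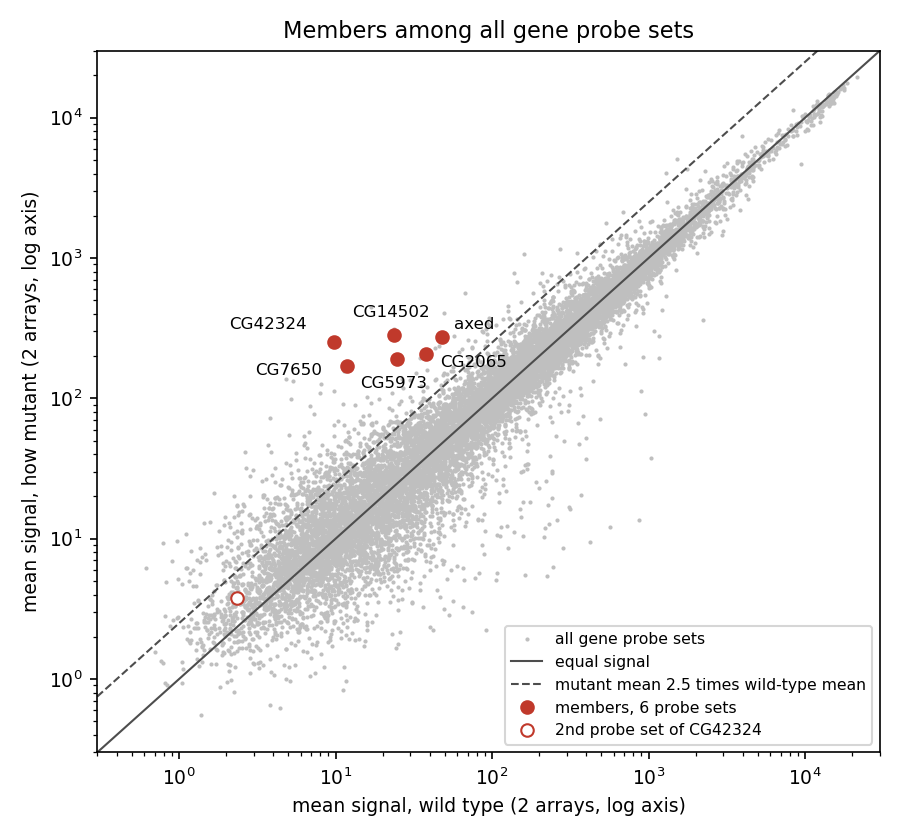
Mean signal in the *how* mutant against mean signal in wild type (log axes, 2 arrays each) for all 13966 gene probe sets (grey), the 6 probe sets of the members that passed the filter (filled red) and the second probe set of *CG42324* (open). The 6 lie above the line of a 2.5-fold higher mutant mean, over wild-type means of 9.74 to 47.8.

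The threshold itself fell within a continuous range of values. Just inside it was *sens*, a proneural zinc finger gene, with 138 and 117 in wild type against 396.5 and 350.0 in the mutant, a separation of 2.53-fold. Just outside was *Fbp1*, with 30.4 on both wild-type arrays against 86.3 and 75.4 in the mutant, a separation of 2.48-fold. Of the 52 named genes inside, 16 are known by a CG number alone, 5 of them members. The other 11 were separated by 2.55 to 4.43-fold.

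The genes most like each member over the 4 arrays were found by the Euclidean distance between log2 signals, each gene centred on its own mean. *CG7650* lay nearest to the peptidoglycan recognition gene *PGRP-SB1* (distance 0.23) and then to *CG14502* (0.35). *CG14502* in turn lay nearest to *PGRP-SB1* (0.32) and *CG7650* (0.35), so these 3 genes lay within 0.35 of each other. *CG42324* was nearest to the heat shock cognate gene *Hsc70-2* (0.87) and to *miple1* (0.99), the gene of a heparin-binding growth factor, both at larger distances. *axed* was nearest to *CG18605* (0.31) and the glutathione transferase gene *GstE3* (0.52). *CG5973* was nearest to *RpS10a* (0.55) and *GstE3* (0.59), and *CG2065* to *TORIP* (0.57) and the homeobox gene *ara* (0.60), which also had unequal wild-type signals. With 2 arrays a group, the distance mostly ranks the size of the difference between groups.

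By RefSeq (assembly Release 6 plus ISO1 MT), *CG42324*, *CG7650* and *axed* lie on chromosome arm 3L, *CG14502* and *CG2065* on 2R and *CG5973* on 2L. None of the 6 lies on 3R, the arm of *how*, or on X. With 6 genes picked by their signals, nothing is read from that absence. Of the genes tested, 19.6% lie on 3L, 20.2% on 2R and 17.9% on 2L. The array files name no genome build, so positions are given only as arms and as the order of genes.

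The next question was whether genes next to the members differed between the groups as well. These genes had no part in the choice of the members, so they were tested, with limma's moderated test over all 8380 probe sets and Benjamini-Hochberg adjustment. Of the 60 nearest genes with a probe set, 5 on each side of each member, 32 passed the filter. Of these, 1 rose and 1 fell, against 1.87% and 1.37% of all named genes, or 3.24% in either direction. The 32 had a median log2 change of 0.05, from -1.10 to 1.00, beside 0.00 over all named genes tested. Among them, 7 had an unadjusted p under 0.05, as had 16.4% of all named genes tested.

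*ImpE2*, an ecdysone-inducible gene and the first measured gene to the right of *CG42324*, fell. Its signals were 704 and 622 in wild type against 307 and 311 in the mutant, a log2 change of -1.10 ± 0.16 (SE; limma adjusted p = 0.00977), the opposite direction to *CG42324*. On the left of *CG42324* stood *CG14971*, with a log2 change of -0.19 ± 0.35 (SE), which did not pass. *CG5181*, the fifth gene to the left of *CG5973*, rose from 207 and 214.5 to 408 and 374.5, a log2 change of 0.89 ± 0.17 (SE; limma adjusted p = 0.036). The call for *CG5181* was lost without any 1 of the 4 arrays (0.83 to 0.95), and that for *ImpE2* without wild-type array 1 (-1.01) and without mutant array 1 or 2 (-1.09 and -1.11). Neither was called in a fit without the mean-variance trend.

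Among the neighbours whose span overlaps that of a member were *sbb* and *santa-maria*, and neither passed. *sbb*, a corepressor gene that overlaps *CG14502*, had signals of 332 and 297 in wild type against 269 and 349 in the mutant, a log2 change of -0.03 ± 0.19 (SE). *santa-maria*, a scavenger receptor gene for carotenoid uptake that overlaps *CG5973*, had 91.0 and 66.2 against 84.1 and 46.9, a change of -0.31 ± 0.41 (SE). In both cases the arrays of the groups overlapped. Those of the members do not overlap by the rule that chose them, so nothing is read from that comparison. Of all probe sets that passed the filter, 46.8% had groups that did not overlap, in either direction.

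Several nearest neighbours were too dim to be tested. To the right of *CG14502*, *CG18536* had signals of 5.10 and 7.73 in wild type against 57.6 and 39.2 in the mutant. Both of its mutant arrays lay above both wild-type arrays, 5.08-fold at the nearest, but it did not pass the filter and has no test. The 4 measured genes beyond it, *CG18537* to *CG18540*, were dim in both groups, with signals from 2.18 to 37.6. *CG13449*, to the right of *CG7650*, and *GluRIA*, a glutamate receptor gene to the right of *axed*, were dim as well. *zpg*, an innexin gene of germ cells to the left of *axed*, had 158 and 186 in wild type against 107 and 105 in the mutant, a log2 change of -0.69 ± 0.24 (SE; limma adjusted p = 0.199), which did not pass. Both of its mutant signals were below both wild-type signals. Groups did not overlap, in either direction, for 46.8% of the probe sets that passed the filter.

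**Figure D3:**
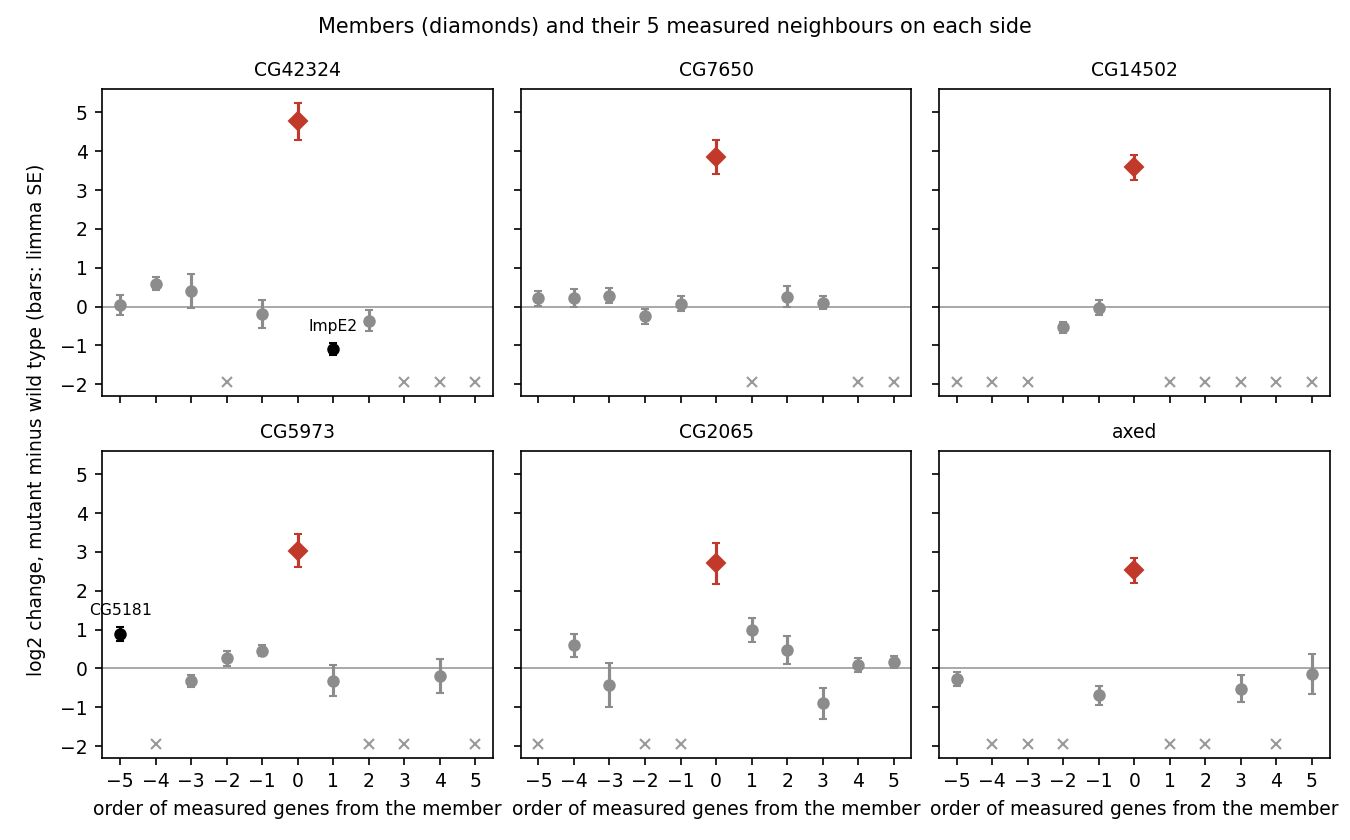
Log2 change, mutant minus wild type (vertical axis, bars are limma's SE), of each member (red diamond) and its 5 measured neighbours on each side by their order along the chromosome (horizontal axis). Black points passed the test (*ImpE2* at -1.10 and *CG5181* at 0.89), grey points did not, and crosses at the bottom mark the order of genes too dim to be tested and have no value; the neighbours lie between -1.10 and 1.00, and the members between 2.53 and 4.77.

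Genes of the same protein classes were compared next, from lists of short-chain dehydrogenases, CRAL-TRIO proteins and phosducin-like proteins that leave out the members. Of 44 such genes with a probe set 25 passed the filter; 1 rose and 0 fell, and the median log2 change was -0.08, from -1.0 to 1.63. The share of named genes called over the whole array was 3.24%. Unadjusted p-values under 0.05 were found for 8 of the 25, beside 16.4% of all named genes tested. Some of these relatives, among them *Rdh1* and *CG5958*, were also counted among the neighbours.

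The dehydrogenase list held the 1 relative that rose, *spidey*, whose product acts on steroids and long-chain fatty acids. Its signals were 64.4 and 84.5 in wild type against 194.5 and 269 in the mutant, a log2 change of 1.63 ± 0.28 (SE; limma adjusted p = 0.0221). The call was lost without wild-type array 1 (1.44), without mutant array 1 or 2 (1.87 and 1.40) and without the mean-variance trend. The other 12 tested dehydrogenase genes did not pass, and 7 of the 13 lay below 0, with a list median of -0.29. Of the 13, 5 had an unadjusted limma p under 0.05, some higher and some lower, beside 16.4% of all named genes tested.

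Within this class, *CG2065* lies among relatives on the chromosome. *Rdh1* (earlier *CG2064*), its first measured neighbour to the right, had 110.0 and 195 in wild type against 247 and 346 in the mutant. All mutant signals lay above the wild-type signals, but the log2 change of 1.00 ± 0.31 (SE) did not pass (limma adjusted p = 0.159). Groups that did not overlap, in either direction, were found for 46.8% of the probe sets that passed the filter. *CG30491*, on the left, had 68.2 and 70.1 against 93.3 and 117.5, a log2 change of 0.60 ± 0.30 (SE; limma adjusted p = 0.385). *CG2070*, the nearest on the left, was too dim to be tested, with 19.0 and 8.66 against 26.5 and 30.1, and *CG30495*, also on the left, had a log2 change of -0.42 ± 0.57 (SE) with overlapping arrays. Whether probes of *CG2065* also bind transcripts of these relatives was not tested.

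None of the 10 tested CRAL-TRIO genes was called by limma, 2 of them had an unadjusted p under 0.05 (16.4% of all named genes had), and another 11 were too dim. *CG5958*, the nearest neighbour of *CG5973* on the left and of the same class, had 684 and 800.4 in wild type against 958 and 1075 in the mutant. Its log2 change of 0.46 ± 0.15 (SE) did not pass (limma adjusted p = 0.190). *CG12926* had the largest value of the list after *CG5973*, with 45.4 and 45.0 in wild type against 93.4 and 93.5 in the mutant, a log2 change of 1.05 ± 0.34 (SE; limma adjusted p = 0.180). *CG10657* had the lowest, at -1.0 ± 0.58 (SE), from wild-type signals of 38.4 and 119 that differed widely from each other.

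The 2 phosducin-like relatives of *CG7650* were measured well above the filter and not called. *viaf*, a phosducin-like gene named for a viral apoptosis inhibitor, had 1124 and 1229 in wild type against 962.5 and 866 in the mutant, a log2 change of -0.36 ± 0.14 (SE; limma adjusted p = 0.257). *CG4511* had 904 and 527 against 570.5 and 599, a change of -0.24 ± 0.24 (SE). For *viaf* both mutant signals were below both wild-type signals, and for *CG4511* the groups overlapped. Over all probe sets that passed the filter, 46.8% had groups that did not overlap.

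*axed* was compared with genes of the axon death and axon injury pathway, in which the Sarm protein and loss of the NAD-producing enzyme Nmnat lead to axon breakdown. Of 9 such genes with a probe set 7 passed the filter, and limma called 0 of them, beside 3.24% of all named genes tested. None had an unadjusted p under 0.05, beside 16.4% of all named genes tested, and the log2 changes ran from -0.16 to 0.05. With 7 genes, counts of 0 cannot be told apart from these shares. *Nmnat* had 126 and 112 in wild type against 98.5 and 116 in the mutant, a change of -0.16 ± 0.26 (SE). The kinase gene *wnd*, which acts downstream of the ubiquitin ligase Highwire, had 613 and 756 against 620.3 and 638, a change of -0.11 ± 0.16 (SE). *Sarm* was too dim to be tested, with 65.1 and 25.3 against 38.7 and 16.4, as was *hiw*, with 20.0 and 15.5 against 15.0 and 20.4.

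**Figure D4:**
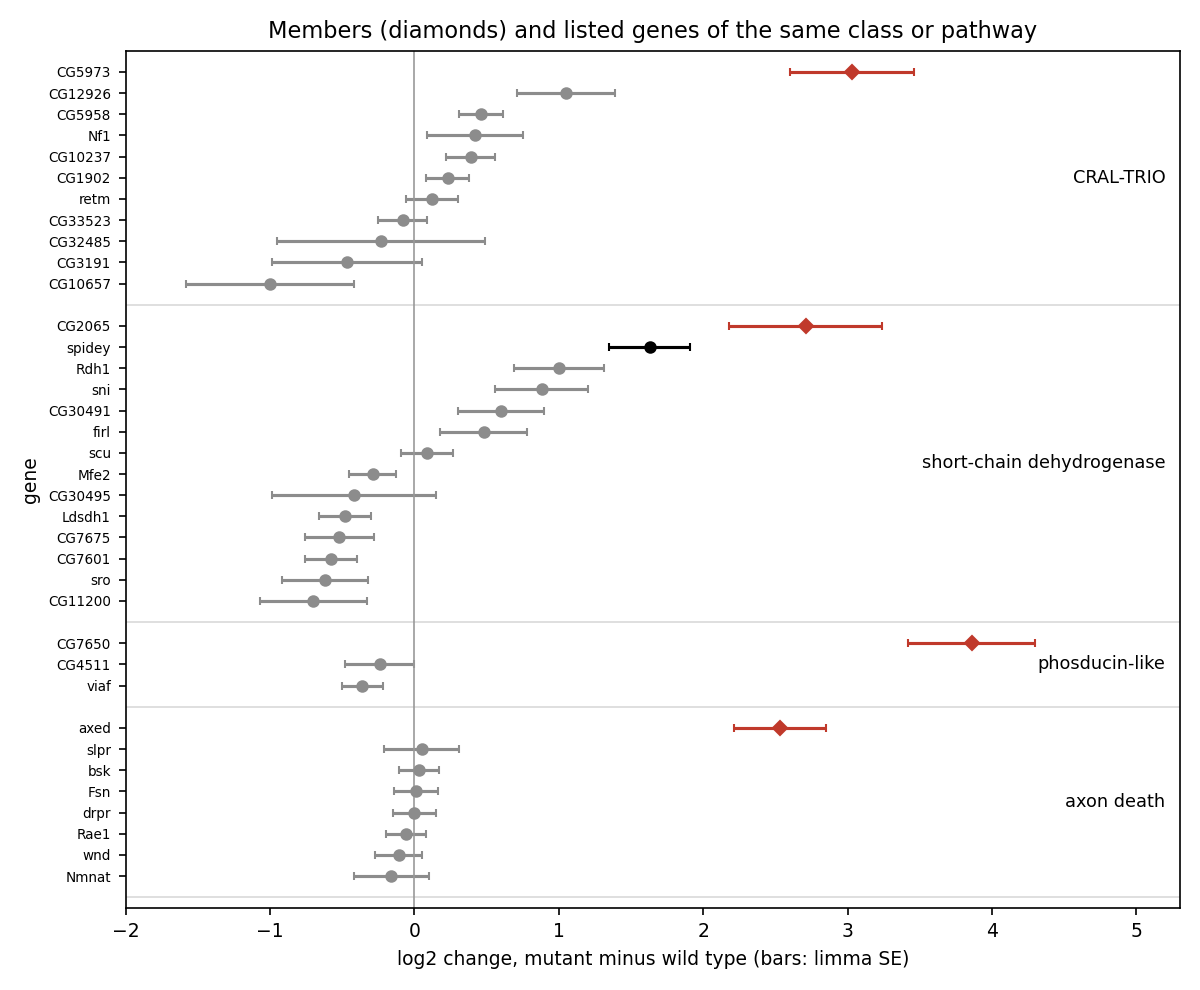
Log2 change, mutant minus wild type (horizontal axis, bars are limma's SE), for the tested genes of 4 lists, each with its member as a red diamond. *spidey* (black, 1.63) is the only listed gene other than the members that passed the test, and the axon death genes other than *axed* lie between -0.16 and 0.05.

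Lists of stage markers were compared between the groups as well. Over all named genes tested, 1.87% rose and 1.37% fell. Of 10 tested genes of late embryonic differentiation, among them muscle and cuticle genes, 8 fell and 0 rose, and the summed signal of the 12 measured was 4760.0 to 4778 in wild type and 681 to 774 in the mutant. Of 5 tested transcripts from a list of maternal genes, 2 rose, *pgc* and *dhd*, and 0 fell. Log2 changes were above 0 for 3 of the 5 and below 0 for 2. The summed signal of the 13 measured was 2252 to 3069 in wild type and 2837 to 2922.5 in the mutant. The largest part of that sum was *stau*, with 2054 and 1257 in wild type against 1202.5 and 1289 in the mutant. *osk*, too dim to be tested, had 24.8 and 7.09 in wild type against 105 and 101 in the mutant, and *exu*, also too dim, had 8.87 and 10.7 against 83.3 and 46.6. For *osk* and *exu*, the mutant signals lay above the wild-type signals. Among the other dim maternal genes, *trk* was also higher, with 11.2 and 15.1 in wild type against 30.4 and 27.2 in the mutant. *tor* was lower, with 8.02 and 8.85 against 6.5 and 5.4. For *bcd*, *png*, *swa* and *orb* the groups overlapped. Among probe sets that passed the filter, 46.8% had groups that did not overlap, in either direction. No such share was taken for dim probe sets, so nothing is read from these dim genes. The tested genes *smg* and *gcl* had log2 changes of -0.42 ± 0.38 (SE) and 0.33 ± 0.15 (SE), and neither was called. Of 9 tested early mesoderm genes 1 rose, *lmd*, and 0 fell, with sums of 4654 to 4818 and 4799 to 4869.9, so early mesoderm transcripts were measured in both groups. Of 4 tested eggshell and yolk genes limma called 0. At an unadjusted p under 0.05 it was also 0, beside 16.4% of all named genes tested. With 4 genes, counts of 0 cannot be told apart from the shares over all genes. The calls for *pgc* and *lmd* were close to the threshold (limma adjusted p = 0.0497 for each): *pgc* lost its call whichever array was left out, and *lmd* lost it unless the array left out was wild-type array 2. Without an array, 5 to 8 late genes were called lower. The part that a difference in embryo age or in the clearance of maternal RNA has in the values of the 6 genes was not tested.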

How the data were processed

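The deposited table holds 1 intensity per probe set and array, which MAS5 made, per the submitters' processing notes; no version or setting of MAS5 is stated there. The 44 control probe sets were left out. Before log2 was taken, signals under the 5th percentile (3.38) were raised to it. Probe sets with a mean log2 signal under the 40th percentile (39.5) were left out, which kept 8380 of 13966. All were fitted in R 4.3.3 by lmFit and eBayes of limma 3.58.1, with a trend of variance on mean signal. Calls were made at a Benjamini-Hochberg adjusted p under 0.05. The fit was also run on data simulated from its own model with known changes, which cannot show its error rate on these arrays. With 2 arrays against 2, an exact permutation test cannot go below p = 0.333. The labels call the 2 experiments independent, but each array pools preparations, so p-values measure the spread between pools, and the number of arrays limits the precision.

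Names come from the platform's annotation, brought to current symbols by Entrez ID through RefSeq (assembly Release 6 plus ISO1 MT): 12443 gene probe sets have 1 symbol, 327 several and 1196 none. A gene is represented by its brightest probe set. The members and lists were chosen with earlier results of these data known. Named genes are all probe sets of the members, the 2 genes most like each, the nearest neighbour on each side (1 is not reported here), any called neighbour or relative, and those at the edge of the 2.5-fold threshold. Relatives were to be found by protein similarity, but no protein sequences were used here, so 3 lists of class members served instead; other relatives, neighbours and stage markers named were chosen after their values were seen. Alternatives were quantile normalization, the replicate number as a block, other filters, median centring, 50 added, variance settings, other thresholds, other numbers of neighbours and leaving out each array.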

Additional observations from a re-analysis of the deposited data

How the results depend on the processing

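No result reversed under any alternative that was run. The median log2 change of the 6 members, 3.30, was 1.77 with 50 added to each signal, and the number separated at least 2.5-fold, 6, was 5 with 50 added, 4 at a 4-fold threshold and 6 under the 2 other scalings. The number of probe sets called, 255, was 825 with a replicate block, 95 with no trend, 0 with no filter (limma's smallest adjusted p 0.0891; 1782 at an unadjusted p under 0.05) and 87 to 153 without an array: 153 and 140 without wild-type array 1 or 2, 117 and 87 without mutant array 1 or 2. The number of neighbours called, 2, was 6 with the replicate block, 0 with no filter, 0 with no trend, 1 with 2 neighbours on each side, 3 with 10, and 0 to 1 without an array (1 without wild-type array 2). The number of relatives called, 1, was 3 with the replicate block, 0 with the 60th percentile filter, which left out *spidey*, 0 with no trend, 0 with no filter, and 0 to 1 without an array (0 without mutant array 1 or 2; without wild-type array 1 the gene called was *CG11200*, lower, and not *spidey*). The number of axon death genes called was 0 under every alternative run. With an array left out, the lone array of a group is assumed to vary like the other group; apart from the fewer arrays, the cause was not tested. The replicate number is not said to mark a shared batch, so the block was no part of the main results. Same-numbered arrays deviated from their group means with a correlation of 0.183 across probe sets. Whether they share a batch was not tested. The stricter threshold on protein similarity was not run, since no protein sequences were used. Dim wild-type signals leave the size of the members' folds uncertain.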

Other observations

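Some probe sets without a gene name, or with a CG number and no place among the 6 genes, showed the same kind of difference; they were chosen after their values were seen, and by the same contrast, so they are given as values only. Of the 58 probe sets that passed the filter and were separated at least 2.5-fold, 4 have no gene symbol and 2 have several. The most widely separated of the 4, probe set 153359_at, had signals of 73.2 and 41.7 in wild type against 241 and 315 in the mutant. Another, 154506_at, had 648 and 421 in wild type against 1795 and 1757 in the mutant. Among the 11 genes with a CG number that are not members, 3 were more widely separated than *CG2065*. *CG18605* had 21.2 and 16.6 in wild type against 94.0 and 105.5 in the mutant, a separation of 4.43-fold. *CG7966* had 28.1 and 25.4 against 123 and 116.5, a separation of 4.14-fold. *CG11357* had 43.4 and 25.7 against 210.5 and 177.5, a separation of 4.09-fold. Another 122 probe sets were separated at least 2.5-fold but too dim to be tested, with mutant means of at most 137.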
